A study of Mus musculus with 7 samples.

Results

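The 10 genes described here mark the early stages of the oligodendrocyte lineage: *Pdgfra*, *Cspg4*, *Ptprz1* and *Neu4* for progenitors, the transcription factor genes *Olig1*, *Olig2* and *Sox10*, and *Gpr17*, *Bcas1* and *Enpp6* for committed precursors. They were chosen by symbol from the 47729 genes of the deposited count table, and all 10 were found and tested. Total RNA came from forebrain at postnatal day 15, in 4 control samples from *Lhx6*+/- mice and 3 mutant samples from *Lhx6*-/- mice, each pooled from 2 animals. Both genotypes carried the *Lhx6*tm2Vpa null allele on an F1 background of C57BL/6 and 129Sv, the controls in 1 copy and the mutants in 2 (4 and 3 libraries, with no wild-type group). The null allele is germline, so no cell type of the mutants was spared, and the forebrain was dissected whole, so the counts sum over all cell types. The comparison asked whether genes of these glial stages differed in a forebrain that lacks LHX6, a factor needed by interneurons of the medial ganglionic eminence (MGE).

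Oligodendrocytes, the myelin-forming cells of the brain, arise from dividing progenitors that spread through grey and white matter and keep their number by proliferation. A progenitor that leaves the cell cycle passes through a short committed stage, in which it switches on early differentiation genes, and then either dies or goes on to wrap axons. In the mouse forebrain the first progenitors come from the MGE and its neighbourhood, the region that also gives rise to *Lhx6*-expressing interneurons, and later waves come from other ventricular zones. The forebrain is actively myelinating at this age.

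Libraries summed to between 32556304 and 38069151 expected counts. *Lhx6* had between 476 and 615 normalized counts in controls and between 70.1 and 76.6 in mutants, so its RNA was reduced and still detected. Forebrain genes were present and hindbrain genes were scarce: 7 forebrain markers summed to between 20634 and 27472 normalized counts per library, and 9 hindbrain and cerebellum markers to between 56.8 and 129.5, with *Hoxa5* at 0 in every library. The column names carry library numbers, and libraries 2, 3 and 5 lay apart from libraries 10 to 13 on the first principal component (39.6% of the variance); both runs of numbers hold both genotypes, so values within each run are given below.

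None of the 10 genes passed the test for a genotype difference (edgeR quasi-likelihood fit of 19684 genes, called where the Benjamini-Hochberg value did not exceed 0.05), while 4.85% of all tested genes were called. Before adjustment 1 of the 10, *Cspg4*, had a p-value of 0.05 or less, against 18.2% of all tested genes. limma-voom called none, and DESeq2 called *Cspg4* alone, where it called 8.22% of genes. With library run added to the model, none of the 10 was called, although the share of all genes called rose to 11.2%. Log2 fold changes (mutant minus control) were positive for 4 genes and negative for 6, with a median of -0.055 beside -0.013 over all tested genes, and ran from -0.27 for *Bcas1* to 0.42 for *Cspg4*. The 95% intervals of all 10 genes lay within a doubling and a halving, from -0.63 at the lowest bound to 0.72 at the highest. In 3 of the 10, *Cspg4*, *Ptprz1* and *Olig2*, the 3 mutant libraries lay wholly above or wholly below the 4 control libraries, which held for 19.7% of all tested genes. In these bulk samples, fewer cells of a type and less RNA per cell cannot be told apart.

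**Figure D1:**
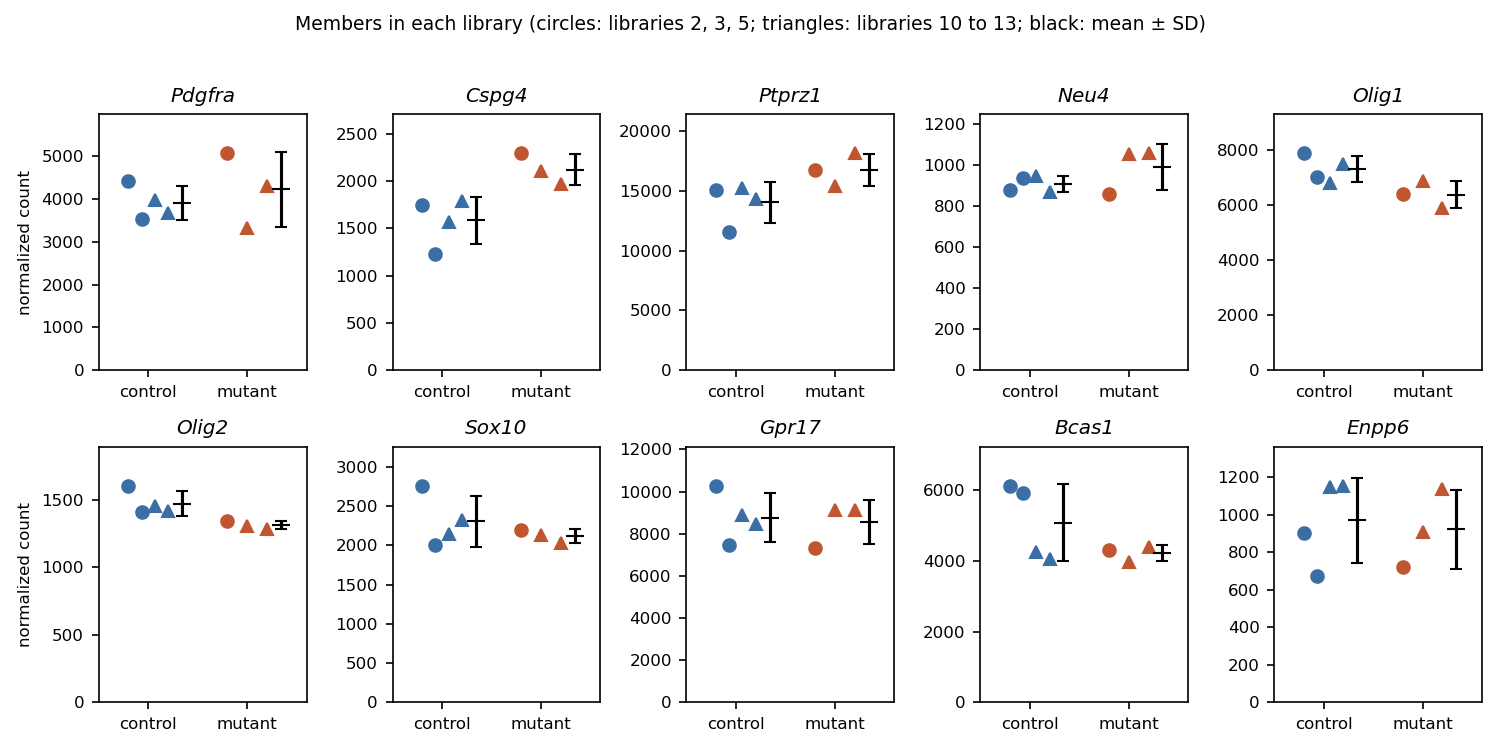
Normalized count (y axis) of each of the 10 genes in 4 control and 3 mutant libraries; circles are libraries 2, 3 and 5, triangles libraries 10 to 13, and black bars the mean ± SD of each genotype. The genotypes separate without overlap in *Cspg4*, *Ptprz1* and *Olig2*, and *Bcas1* is highest in control libraries 2 and 3.

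The 4 progenitor genes all had mutant means above control means, and none passed the test. *Pdgfra* (chromosome 5, 75152292 to 75198215 of GRCm38, plus strand) encodes the receptor for platelet-derived growth factor AA, the mitogen that keeps progenitors dividing. Its normalized count was 4426 in control library 2, 3535 in 3, 3979.7 in 10 and 3670.1 in 11, and the mutants gave 5068 in library 5, 3328 in 12 and 4298 in 13. The genotypes overlapped fully, since mutant library 5 was the highest of the 7 and mutant library 12 the lowest. Mutant minus control was 0.12 on the log2 scale (standard error 0.144, 95% interval -0.21 to 0.44, adjusted p = 0.756 from edgeR), and without mutant library 5 it was -0.022. Within libraries 2, 3 and 5 the difference was 0.36, and within libraries 10 to 13 it was 0.0046. Exons of other genes, *Gm42802* and *Gm42803* on the other strand and *Mir7025*, cover 6.5% of the exon bases of *Pdgfra*, and the counting is not known to use strand, so a small part of its count is uncertain.

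*Cspg4* (chromosome 9, 56865104 to 56899870, plus strand) encodes NG2, the proteoglycan by which progenitors are usually identified and which pericytes of capillaries also carry. Controls 2, 3, 10 and 11 held 1742, 1232, 1569.6 and 1789.8 normalized counts, against 2291, 2101 and 1969 for mutants 5, 12 and 13. Every mutant library lay above every control library. The means were 1583 ± 252 and 2120.3 ± 162 (SD over 4 and 3 pools), which is 0.42 higher in mutants on the log2 scale (standard error 0.130, 95% interval 0.13 to 0.72, or 1.09-fold to 1.64-fold). Its p-value was 0.0105 before and 0.117 after adjustment in edgeR, and 0.0404 after adjustment in DESeq2. Over the alternatives the adjusted p ran from 0.0404 to 0.272, and no other fit than DESeq2 called it. In the lower run it came to 0.64, and in libraries 10 to 13 to 0.28, where the adjusted p was 0.0764 (edgeR).

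*Ptprz1* (chromosome 6, 22875502 to 23052916, plus strand) encodes a receptor tyrosine phosphatase of progenitors and astrocytes that binds pleiotrophin. Its normalized counts were 15082, 11535, 15189 and 14308 in controls and 16696, 15363 and 18107 in mutants. The lowest mutant library stood just above the highest control library. The log2 fold change was 0.25 (standard error 0.115, 95% interval -0.0080 to 0.51, adjusted p = 0.289, edgeR). It was 0.34 in the lower run of library numbers and 0.19 in the higher one. *Neu4* (chromosome 1, 94020451 to 94028334, plus strand) encodes a sialidase, an enzyme that removes sialic acid from glycoproteins and glycolipids. It was the least variable gene of the 10 across the 7 libraries, at 881, 938, 948 and 872 in controls and 862, 1056 and 1058 in mutants. Mutant library 5 was the lowest and the other mutant libraries the highest of the 7. The genotype difference was 0.12 on the log2 scale (95% interval -0.096 to 0.34, adjusted p = 0.580 from edgeR), and within libraries 2, 3 and 5 it was -0.077.

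The 3 transcription factor genes all had mutant means below control means, by small amounts that did not pass the test. *Olig1* and *Olig2* lie close together on chromosome 16 (91269772 to 91271933 and 91225550 to 91228677, both on the plus strand) and encode basic helix-loop-helix proteins: OLIG2 specifies the lineage, and OLIG1 acts in differentiation and repair. *Olig2* had 1604, 1408, 1454 and 1415 normalized counts in controls and 1345, 1307 and 1284 in mutants. All 3 mutant libraries lay below all 4 controls, and they were tightly grouped, with an SD of 2.35% of the mean. Mutants differed from controls by -0.16 on the log2 scale (standard error 0.0750, 95% interval -0.33 to 0.0065, adjusted p = 0.292, edgeR), and by -0.16 and -0.14 within the 2 runs. *Olig1* had 7858, 7007, 6800.4 and 7471 in controls and 6372, 6853 and 5872 in mutants. Mutant library 12 lay just above control library 10, the only overlap. Its log2 fold change was -0.19 (standard error 0.0894, 95% interval -0.40 to 0.0089, adjusted p = 0.296, edgeR), or -0.22 and -0.16 within the runs. Other genes contain 5.74% of the 36-base words of *Olig1* transcripts, and 0% of those of *Olig2*.

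*Sox10* (chromosome 15, 79154913 to 79164490, minus strand) encodes the high-mobility-group protein that stays on from progenitor to myelinating cell and switches on myelin genes. Controls held 2761, 2000.4, 2143 and 2319 normalized counts and mutants 2197, 2137 and 2031. The mutant libraries lay inside the control range, which was set by control library 2 at the top and control library 3 at the bottom. On the log2 scale the difference was -0.12 (standard error 0.112, 95% interval -0.37 to 0.13, adjusted p = 0.661 from edgeR), and without control library 2 it was -0.023. The differences within the runs were -0.098 and -0.091.

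*Gpr17* (chromosome 18, 31942997 to 31949636, minus strand) encodes a G-protein-coupled receptor that appears when progenitors commit and goes down again before myelin is made. Its control libraries had 10278, 7447, 8874 and 8487 normalized counts and its mutant libraries 7332, 9148 and 9145. Mutant library 5 was the lowest of the 7, and the other mutant libraries lay inside the control range. The log2 fold change was -0.038 (standard error 0.128, 95% interval -0.33 to 0.25, adjusted p = 0.922 from edgeR). The sign depended on the run, with -0.26 within libraries 2, 3 and 5 and 0.084 within libraries 10 to 13. *Lims2* on the other strand covers 3.62% of the exon bases of *Gpr17*.

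*Bcas1* (chromosome 2, 170346991 to 170427845, minus strand) marks oligodendrocytes that have just begun to myelinate. Controls 2 and 3 gave 6111 and 5905 normalized counts, controls 10 and 11 gave 4228 and 4048, and mutants 5, 12 and 13 gave 4304, 3953 and 4396. Control libraries 2 and 3 stood apart from the other 5, and the mean of those 2 was 1.45 times that of control libraries 10 and 11. The log2 fold change of -0.27 (standard error 0.158, 95% interval -0.63 to 0.093, adjusted p = 0.442 from edgeR) came to -0.48 in the lower run and 0.021 in the higher run. The transcripts *Bcas1os1* and *Bcas1os2* on the other strand cover 12.6% of its exon bases, and 9.78% of its 36-base words occur in other genes, so its counts are the least certain of the 10.

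*Enpp6* (chromosome 8, 46986925 to 47094895, plus strand) encodes a choline-specific phosphodiesterase that is switched on in newly forming oligodendrocytes. The control libraries had 901, 675, 1145 and 1154 normalized counts and the mutant libraries 721, 906 and 1138. Its spread within a genotype was the widest of the 10, with SDs of 23.5% and 22.7% of the means, and the genotypes overlapped. Mutants differed by -0.072 on the log2 scale (standard error 0.212, 95% interval -0.55 to 0.41, adjusted p = 0.911 from edgeR). It was -0.11 in the lower run, -0.16 in the higher run and -0.15 with library run in the model. *Enpp6* and *Bcas1* mark neighbouring steps and differed in opposite ways between the runs: in controls 2 and 3 over controls 10 and 11, the ratio of means was 0.686 for *Enpp6* and 1.45 for *Bcas1*.

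OLIG and SOX10 proteins regulate many genes of this lineage, so the 250 bases before the RefSeq start (GRCm38.p6) were searched on both strands for E-boxes and SOX boxes in the 6 genes with a promoter entry (*Pdgfra*, *Cspg4*, *Ptprz1*, *Neu4*, *Olig2* and *Enpp6*). The E-box CATATG occurs in 3.46% of 32851 promoters and in none of the 6. The E-box CAGCTG occurs in 13% of promoters and in none of the 6. The SOX box ACAAAG occurs in 16.5% and in none of the 6, while the SOX box AACAAT occurs in 9.42% and was found in *Olig2* and *Enpp6*. The TATA box TATAAA occurs in 12.4% and was found in *Olig2*. The *Enpp6* match is shown as an example of a window with a SOX box, at chr8:46986643-46986696 on the plus strand, with the box in capitals. A match is a description of letters and no test of binding.
*Enpp6* promoter: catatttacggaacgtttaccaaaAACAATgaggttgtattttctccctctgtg

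**Figure D2:**
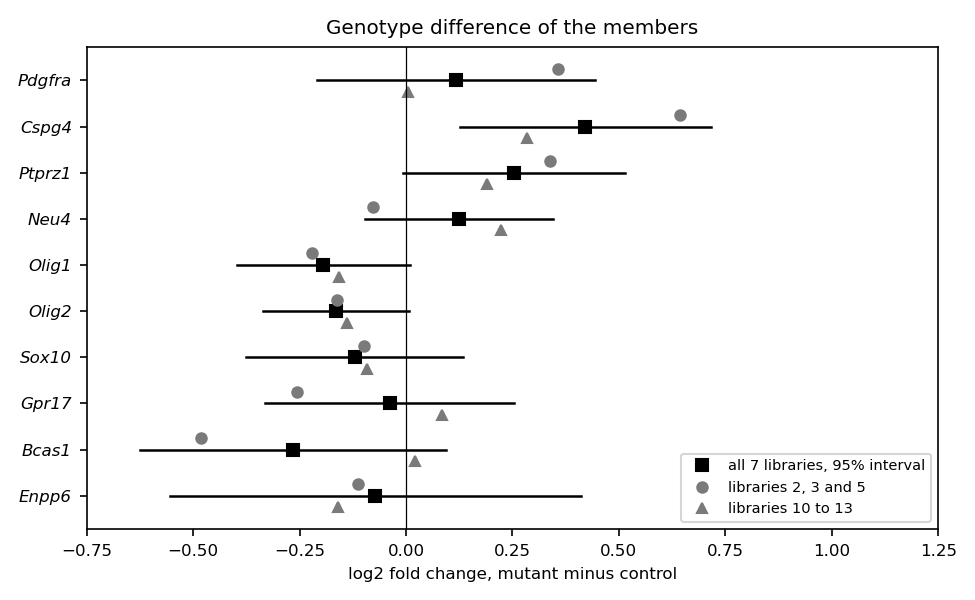
Log2 fold change of each gene, mutant minus control (x axis): squares and lines are all 7 libraries with the 95% interval from edgeR, circles libraries 2, 3 and 5, and triangles libraries 10 to 13. The interval of *Cspg4* (0.13 to 0.72) excludes 0, while 9 of 10 intervals include it, and *Bcas1*, *Gpr17* and *Neu4* differ in sign between the runs.

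Levels were compared between genes as normalized counts per kilobase of merged exons, in controls and then in mutants (mean ± SD, n = 4 and 3 pools). *Olig1* was the highest, at 3369 ± 219 and 2944 ± 227, followed by *Gpr17* at 1688 ± 225 and 1644 ± 202. *Bcas1*, at 1344 ± 287 and 1117 ± 62.0, overlapped *Gpr17* in controls and not in mutants. *Ptprz1*, at 985 ± 120 and 1174 ± 96.3, and *Sox10*, at 850 ± 122 and 782 ± 30.9, overlapped each other in controls and were apart in mutants. *Olig2* followed at 603 ± 37.7 and 538 ± 12.6, and *Pdgfra* at 389 ± 39.5 and 422 ± 87.0. The lowest were *Enpp6* (219 ± 51.7 and 209 ± 47.3), *Cspg4* (197 ± 31.4 and 263 ± 20.2) and *Neu4* (196 ± 8.37 and 214 ± 24.2), which overlapped in controls. The first 2 and the fifth to seventh places were the same in both genotypes, and *Bcas1* and *Ptprz1* exchanged places, although their ranges overlapped in mutants. The gene lengths were those of all annotated exons together, so a gene with long exons that are little used reads too low.

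The average profile of the 10 genes over the 7 libraries (log2 level relative to each gene's mean) was nearly flat, from -0.15 in control library 3 to 0.13 in control library 2, with mutant libraries between -0.017 and 0.050. Of 13439 genes with a mean of at least 100 normalized counts, the 5 nearest to it by root mean square difference were *Pcyt1a*, *Tril*, *Nkiras2*, *Gtf3c4* and *Rsf1*, at 0.031 to 0.038 on the log2 scale. The flat average pooled stages that differed in direction. The 4 progenitor genes averaged 0.041 to 0.18 in mutant libraries and -0.28 to 0.0040 in controls. The 3 transcription factor genes averaged -0.16 to -0.051 in mutants and -0.036 to 0.24 in controls. The 3 committed precursor genes overlapped, at -0.24 to 0.10 and -0.11 to 0.20. These group averages were not tested.

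Among other genes of the lineage, some progenitor genes were called, while none of the 4 progenitor genes of the 10 was. The difference between these lists was not tested. Of 16 other progenitor genes, 5 were higher in mutants and none lower, where 2.97% of all tested genes were called higher, and the list's median log2 fold change was 0.37. *Pcdh15*, a protocadherin gene, rose from between 603 and 973 normalized counts in controls to between 1568 and 1764 in mutants (log2 fold change 0.95, adjusted p = 0.0122 from edgeR). *Megf11* rose by 0.90 (adjusted p = 0.0123), *Susd5* by 0.75 (0.0150), *Tmem100* by 0.69 (0.0221) and *Vcan*, the gene of the matrix proteoglycan versican, by 0.56 (0.0228), all from edgeR, and in each of the 5 all mutant libraries lay above all controls. None of the 5 was called when mutant library 13 was left out, and 3 genes of the list were called without mutant library 5. *Sox6*, which holds progenitors undifferentiated, had a log2 fold change of -0.30 (adjusted p = 0.278 from edgeR). The paper describes *Sox6* as an effector gene dependent on *Lhx6* and cites its deletion in immature interneurons. The part of interneurons in this value was not tested.

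Of 14 other genes of committed precursors and newly formed oligodendrocytes, none was called by edgeR or limma-voom, with a median of -0.11. An unadjusted p of 0.05 or less (edgeR) was reached by 4 of them, against 18.2% of all tested genes. DESeq2 called 2 lower, *Cnksr3* (-0.48, adjusted p = 0.00774), the largest difference, and *Rras2* (-0.47, adjusted p = 0.0204), and so did edgeR with library run in the model (0.0263 and 0.0475). Of 17 myelin and mature oligodendrocyte genes, 4 were lower in mutants, where 1.87% of all tested genes were called lower, and none was higher; 16 of 17 had a negative log2 fold change and the median was -0.48. Among them, *Mbp*, *Mag* and *Cnp* fell by 0.53, 0.54 and 0.48 on the log2 scale (adjusted p = 0.00752, 0.0100 and 0.0101 from edgeR). *Ermn* had the largest difference, -0.72, and did not pass. With the run as a covariate 14 of the 17 were called lower; without mutant library 5 there was 1, and without mutant library 13 there were 0. Mutant library 5 held the lowest level of this list among the 7 libraries, 0.66 below its mean on the log2 scale, and control library 2, at -0.23, lay below mutant libraries 12 (0.033) and 13 (-0.12).

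**Figure D3:**
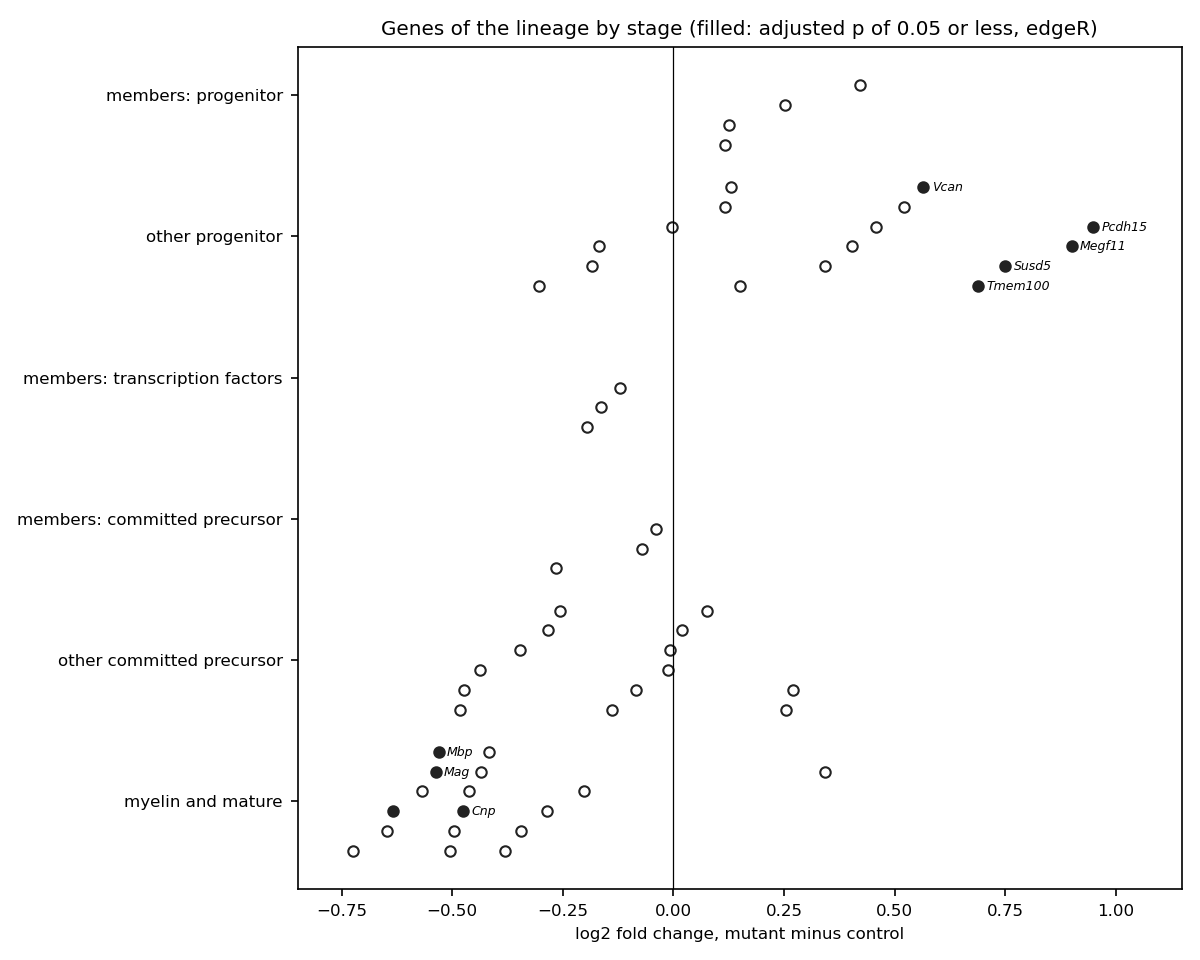
Log2 fold change, mutant minus control (x axis), of each gene of the lineage by stage (rows; vertical position within a row has no meaning); filled points have an adjusted p of 0.05 or less in edgeR. No gene of the 10 is filled, against 5 other progenitor genes on the right and 4 myelin genes on the left.

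Each list of regulators or partners of these stages held 1 gene called by edgeR, of 10, 12 and 12 genes. Of all tested genes, 4.85% were called. Of 10 regulators that drive differentiation, *Hdac11* was lower (-0.35, adjusted p = 0.0453 from edgeR) and none was higher, with a median of -0.16 and 8 of 10 differences negative. The largest difference was in *Nkx6-2* (-0.52), with an adjusted p of 0.0684 in edgeR, 0.0128 in DESeq2 and 0.0355 with library run in the model. An unadjusted p of 0.05 or less (edgeR) was reached by 4 of the 10 regulators, against 18.2% of all tested genes. Of 12 inhibitors of differentiation, *Sox5* was higher (0.47, adjusted p = 0.0166 from edgeR) and none lower, with a median of 0.037. Of 12 ligands and partners of the receptors among the 10 genes, *Pdgfd* was higher in edgeR (0.77, adjusted p = 0.0445) and not called by limma-voom (0.0555), and edgeR called none lower. *Pdgfa*, the gene of the ligand of PDGFRA, had -0.23, with all mutant libraries below all controls and an adjusted p of 0.0906 in edgeR, 0.0328 in DESeq2 and 0.0382 with library run in the model. *Ptn*, the gene of pleiotrophin, had 0.11. The genotypes did not overlap in 4 of these 12 genes, against 19.7% of all tested genes. *Hdac11*, *Sox5* and *Pdgfd* also serve other cell types. *Bmp4*, *Nkx2-2*, *Sox6* and *Tcf7l2* each stand in 2 lists. Of 9 genes of cycling cells none was called by edgeR, DESeq2 or limma-voom (0 had an unadjusted p of 0.05 or less, edgeR), with a median of 0.31 and the largest difference in *Ccnb1* (0.61).

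A within-library ratio compared the stages without any scaling of libraries. The log2 ratio of *Gpr17* to *Pdgfra*, committed precursor over progenitor, was 1.22, 1.07, 1.16 and 1.21 for controls 2, 3, 10 and 11, against 0.53, 1.46 and 1.09 for mutants 5, 12 and 13. The controls were close together and the mutants lay on both sides of them. The difference was -0.14 (exact permutation test over libraries, two-sided, p = 0.657, also 0.657 after adjustment over the 2 ratios computed), and it was 0.11 without mutant library 5. The smallest p that 35 assignments allow is 0.0286.

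Some of the 10 genes are also used by other cell types, whose markers were read beside them. Of 8 pericyte genes, *Atp13a5* was higher in mutants (0.58, adjusted p = 0.0481 from edgeR), none was lower, and the median was 0.40; the summed level ran from 9903 to 10383 normalized counts in controls and from 11595 to 13413 in mutants. *Pdgfrb*, their defining receptor, had a log2 fold change of 0.46 (adjusted p = 0.0589 from edgeR and 0.00731 from DESeq2), close to the 0.42 of *Cspg4*. Of 9 astrocyte genes, which bear on *Ptprz1*, *Gfap* was higher (1.95), the median was 0.20, and the summed level ran from 217112 to 312920 in controls and from 341833 to 398423 in mutants. Of 8 fibroblast genes, which bear on *Pdgfra*, none was called by edgeR or limma-voom (2 had an unadjusted p of 0.05 or less, edgeR) and DESeq2 called *Col1a1*, the largest difference (0.44), with a median of 0.10 and summed levels of 8416 to 10936 in controls and 8609 to 11142 in mutants. None of these markers was at 0. The part of these cell types in the values of *Cspg4*, *Ptprz1* and *Pdgfra* was not tested. Nor was their part in the 5 other progenitor genes called higher. Of 6 microglia genes none was called by the 3 tools and 1 was with library run in the model, with a median of -0.10 and the largest difference in *P2ry12* (-0.30; 2 had an unadjusted p of 0.05 or less, edgeR). Of the forebrain markers, 1 was called higher and 1, *Lhx2*, lower (-0.33), with a median of -0.11 and the largest difference in *Emx1* (-0.46, not called by edgeR, DESeq2 or limma-voom). Of 9 hindbrain markers 3 were tested and of 10 thalamus and hypothalamus markers 5, with medians of -0.34 and -0.094, the largest differences in *En2* (-0.46) and *Avp* (1.11), and no calls by the 3 tools (0 and 0 had an unadjusted p of 0.05 or less, edgeR).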

How the data were processed

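The authors cleaned the 36 bp single-end reads with cutadapt 1.9.1, mapped them with Bowtie2 2.2.9 to Ensembl release 84 transcripts (GRCm38), and deposited unnormalized RSEM 1.2.31 expected counts for each gene. RSEM shares reads between genes, so close copies have less certain counts. Whether strand was used is not given in the sources used here. A deposited table of the authors' own comparison (fold changes and p-values) was read only for gene symbols, and the deposited annotation for positions and exon lengths. The column names give genotype and library number, and 0 columns of per-sample values were left unused.

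Expected counts were rounded, genes were kept where 3 or more libraries had 10 or more counts, and the 19684 kept were scaled by TMM and tested with edgeR 4.0.16 (glmQLFTest, R 4.3.3), adjusted by Benjamini-Hochberg and called at 0.05. Each standard error is the size of the log2 fold change divided by the root of F. A normalized count is a count divided by its library's TMM-adjusted total, itself taken relative to the average library. A count of 0 allows up to 3 counts (0.0921 CPM in the smallest library), for counting error only. Libraries of a genotype differed by 9.93 to 70.4 in chi-square per degree of freedom, so each counted as 1 replicate. The labels do not say whether pools shared litters, and p-values measure the spread between pools. The test was first run on simulated data.

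Alternatives were RLE and upper quartile scaling, DESeq2 1.42.0, limma-voom (limma 3.58.1), no filter, a filter on all 7 libraries, unrounded counts, library run added to the model, each run alone, each library left out, and pseudocounts of 0 and 5 in place of 1 for the ratios. Genes named are the 10, the called genes and the largest difference of each list, and the 5 nearest profiles; *Pdgfrb*, *Pdgfa*, *Ptn*, *Rras2* and *Sox6* were named after their values were seen. Of the genes and ratios the rule names, 1 ratio and 2 called list genes are not reported here. The 10 genes and the lists were chosen with earlier results of these data known.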

Additional observations from a re-analysis of the deposited data

How the results depend on the processing

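No paired analysis was possible because the columns of the count table carry library numbers and not the replicate numbers of the sample titles. Of the 10 genes, the number called was 0 in edgeR and 1 (*Cspg4*) in DESeq2; each other fit that gave a test, those with 1 library left out among them, gave 0. Libraries 2, 3 and 5 alone, with 1 mutant library, gave values and no test. Signs turned within libraries 10 to 13 for *Gpr17* (0.084) and *Bcas1* (0.021), and within libraries 2, 3 and 5 for *Neu4* (-0.077). With 1 library left out, log2 fold changes ran from -0.022 to 0.26 for *Pdgfra*, -0.11 to 0.072 for *Gpr17* and -0.25 to 0.089 for *Enpp6*. The *Gpr17* to *Pdgfra* ratio differed by -0.61 within libraries 2, 3 and 5 and by 0.091 within libraries 10 to 13. With 1 library left out the difference ran from -0.35 to 0.11. Other progenitor genes called higher numbered 0 to 5 with 1 library left out. Myelin genes called lower numbered 0 to 4 with 1 library left out, 14 with the run as a covariate and 13 within libraries 10 to 13. All genes called numbered 954, from 302 without mutant library 13 to 2205 with the run as a covariate, and 1690 in DESeq2. The median of all genes moved by less than 0.1 under either other scaling. The cause of these changes was not tested. With 4 and 3 pools, differences below the intervals given could not be resolved.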
